A study of Mus musculus with 9 samples.

Results

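Ribosome biogenesis and nucleolar genes were followed through mouse reprogramming on whole-transcript arrays. The set was a named list of 39 genes for ribosomal RNA transcription, processing and modification and for assembly of the ribosomal subunits. It was chosen with earlier results of these data known. Each gene was represented by an array row that carries its symbol alone, and where several such rows existed by the one with the highest mean over the 9 arrays. In this way 38 of the 39 genes were found among 19937 genes, and Ppan was left out because its row carries more than 1 symbol. All 38 had a mean above the median of the whole table, and no filter on low values was applied.

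The series holds 3 groups of 3 arrays. The baseline group was a fibroblast line at passage 4, cultured from mice made from TSKM iPS cells, where TSKM stands for the doxycycline-inducible factors Tet1, Sox2, Klf4 and c-Myc. The TSKM-3D group was the same kind of fibroblast at passage 4 after 3 days of doxycycline, which switches the factors on. The iPS group was a line of induced pluripotent stem cells at passages 10 to 15, obtained with the same 4 factors through this secondary system. All groups carry the strain label OG2-GFP/Rosa26-M2rtTA, an Oct4 reporter with a doxycycline-dependent activator. The medium was changed to embryonic stem cell medium together with the doxycycline, so the TSKM-3D comparison covers both, and the iPS cells were grown on feeder fibroblasts treated with mitomycin C, which were removed by brief plating before collection.

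Making a ribosome starts in the nucleolus, where RNA polymerase I transcribes a long precursor of 18S, 5.8S and 28S ribosomal RNA. Small nucleolar ribonucleoproteins (snoRNPs) guide chemical modification of this precursor, a large assembly called the small subunit processome folds and cleaves it, and separate sets of factors then mature the 40S and the 60S subunit. Many of these genes are known targets of MYC, one of the introduced factors, and their output is known to scale with growth.

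Relative to fibroblasts, 25 of the 38 genes were at least 2-fold higher in iPS cells, where 7.63% of all genes were. Of these 25, 9 were also at least 2-fold higher after 3 days, where 1.26% of all genes were higher in both. None of the 38 was 2-fold lower in any comparison. Of all genes, 7.58% were lower in TSKM-3D cells than in fibroblasts, 8.57% in iPS than in TSKM-3D cells and 13.8% in iPS cells than in fibroblasts. The largest rises were in Tsr1, a factor of late 40S assembly (4.2-fold in iPS cells), Nhp2 and Nop58, core proteins of the box H/ACA and box C/D snoRNPs (3.48-fold and 3.37-fold), and Heatr1, a processome subunit (3-fold). A minority did not take part: Bop1, Nob1 and Wdr75 differed by no more than 0.13 on the log2 scale between iPS cells and fibroblasts, and Nop16 by -0.20.

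The promoters of the genes that rose early are shown first, because MYC was among the introduced factors and its preferred DNA motif, the E-box CACGTG, can be read in them. RefSeq windows of GRCm38.p6, from 250 bases before to 50 bases after the annotated start, were found for 32 of the 38 genes and for 8 of the 9 that were higher in TSKM-3D cells. Of those 8, the 3 that hold CACGTG were Tsr1, Wdr43 and Pes1, and Mrto4 is printed beside them as the one with the largest TSKM-3D difference among the 5 that do not. The sequences run 5′ to 3′ along the gene, and capitals mark CACGTG alone, not the other motifs counted below. Tsr1 lies on the plus strand at chr11:74897830-74898129, Wdr43 on the plus strand at chr17:71615965-71616264, Pes1 on the plus strand at chr11:3963725-3964024 and Mrto4 on the minus strand at chr4:139352527-139352826.
Tsr1: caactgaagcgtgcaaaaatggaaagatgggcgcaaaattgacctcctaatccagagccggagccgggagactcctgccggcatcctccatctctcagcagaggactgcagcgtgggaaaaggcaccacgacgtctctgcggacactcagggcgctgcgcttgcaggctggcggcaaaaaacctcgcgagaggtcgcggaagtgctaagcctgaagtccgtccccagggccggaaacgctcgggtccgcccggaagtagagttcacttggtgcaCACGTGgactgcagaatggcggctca
Wdr43: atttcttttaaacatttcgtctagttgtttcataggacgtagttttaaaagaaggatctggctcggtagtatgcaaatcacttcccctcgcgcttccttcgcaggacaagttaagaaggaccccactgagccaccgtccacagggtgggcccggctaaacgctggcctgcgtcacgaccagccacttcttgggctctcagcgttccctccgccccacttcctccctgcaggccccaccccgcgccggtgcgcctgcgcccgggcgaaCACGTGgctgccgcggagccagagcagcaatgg
Pes1: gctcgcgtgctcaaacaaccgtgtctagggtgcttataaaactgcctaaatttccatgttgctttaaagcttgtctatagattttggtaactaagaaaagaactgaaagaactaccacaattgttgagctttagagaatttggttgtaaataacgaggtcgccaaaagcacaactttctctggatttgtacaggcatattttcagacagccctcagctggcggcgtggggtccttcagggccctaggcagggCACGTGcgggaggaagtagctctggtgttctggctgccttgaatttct
Mrto4: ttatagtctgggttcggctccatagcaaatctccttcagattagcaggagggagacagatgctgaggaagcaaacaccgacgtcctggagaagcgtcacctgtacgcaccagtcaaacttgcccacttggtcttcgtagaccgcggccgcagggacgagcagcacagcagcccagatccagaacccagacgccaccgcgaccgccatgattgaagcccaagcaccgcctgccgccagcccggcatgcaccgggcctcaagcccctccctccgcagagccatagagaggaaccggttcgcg

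In all 3 of these promoters the E-box began shortly after the annotated start, at base 25 in Tsr1, base 18 in Wdr43 and base 3 in Pes1. CACGTG reads the same on both strands. Over all 32 genes it was found in 7 (21.9%), against 9.5% of the 15613 genes that were tested on the arrays and have a window. It lay within the 50 bases after the start in 6 of the 32 (18.8%), against 1.4% of those 15613. The further 3 genes with this position, Utp20, Pno1 and Ltv1 (bases 38, 38 and 29), were not among those higher in TSKM-3D cells, and in Nop2 the motif lay 60 bases before the start. The variant CACGCG, searched on both strands, was in 7 of the 32 genes (21.9% against 14.9%), and CCGGAAG, the core of many ETS-family sites, was in 9 (28.1% against 13.6%). Within the 50 bases after the start CACGCG lay in 3 of the 32 (9.38% against 3.05%) and CCGGAAG in 2 (6.25% against 3.52%). In the 8 genes higher in TSKM-3D cells, each of the 3 motifs was found in 3 (37.5%). The shares over the tested genes differed, at 9.5% for CACGTG, 14.9% for CACGCG and 13.6% for CCGGAAG. Within the 50 bases after the start CACGTG lay in 3 of the 8 (37.5%), CACGCG in 2 (25%) and CCGGAAG in 1 (12.5%). The shares over the tested genes at this position were 1.4%, 3.05% and 3.52%. A set of 8 genes is small, and whether any motif bears on the day-3 values was not tested. All these counts are matches of letters, not binding sites, and the base composition of the windows was not compared.

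**Figure D1:**
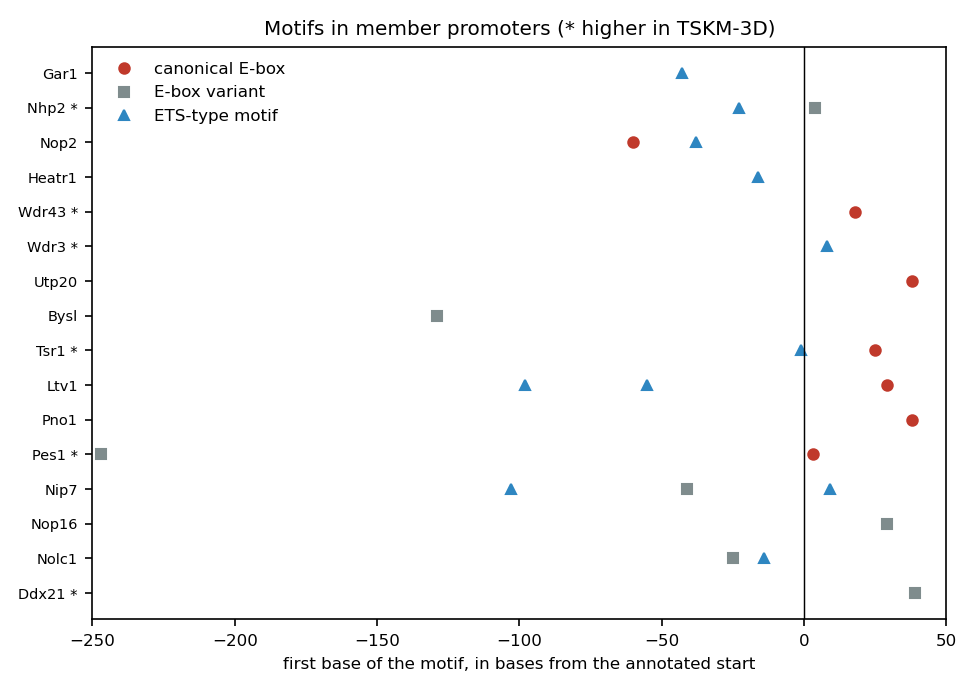
Position of 3 motifs in the promoter windows of the genes that hold any of them. The horizontal axis is the first base of each motif in bases from the annotated start, and an asterisk marks genes at least 2-fold higher in TSKM-3D cells than in fibroblasts. 6 of the 7 canonical E-boxes lie to the right of the start.

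Expression values below are log2 array values, so a difference of 1 is 2-fold. All 3 groups were fitted together with limma, and a gene was called higher or lower when it lay at or past 2-fold with a Benjamini-Hochberg adjusted p below 0.05 over 19937 genes. All 2159 genes past 2-fold between TSKM-3D cells and fibroblasts also passed the adjusted p, as did all 3001 and 4283 in the other 2 comparisons, so the fold line alone set these calls. Every adjusted p given is from that fit. Differences are given with its moderated standard error, which pools a gene's spread over all 9 arrays and draws it toward that of all genes. Whether replicate arrays stem from separate cultures is not stated, and array-to-array variation behind these p-values may be purely technical. One fibroblast array, replicate 3, is described as induced under cell type, in conflict with its title, source and passage. Over the 38 genes it averaged 9.38, against 9.31 and 9.32 on the other fibroblast arrays and 9.96 to 10.05 on the TSKM-3D arrays. Without it, 11 of the 38 genes were called higher in TSKM-3D cells in place of 9, and 25 in iPS cells as before. The median SD of the 38 genes was 0.07 in fibroblasts, 0.08 in TSKM-3D cells and 0.08 in iPS cells (n = 3 each).

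The stage labels were checked on marker lists. All 12 pluripotency markers were at least 2-fold higher in iPS than in TSKM-3D cells, with list means of 10.91 to 10.94 on iPS arrays and 5.34 to 5.74 on TSKM-3D arrays. Of 16 fibroblast markers, 8 were lower and 1 higher in TSKM-3D cells than in fibroblasts, with list means of 9.98 to 10.03 on TSKM-3D arrays, and 14 were lower in iPS cells than in fibroblasts, with list means of 8.65 to 8.77 on iPS arrays and 11.33 to 11.41 on fibroblast arrays, yet Vim still read 11.95 in the iPS group. Of 15 macrophage markers, 5 were lower in TSKM-3D cells than in fibroblasts, with list means of 5.46 to 5.61 on TSKM-3D arrays and 6.55 to 6.64 on fibroblast arrays. In bulk RNA a smaller share of cells and less RNA per cell cannot be told apart, and the part of these cells in the results was not tested.

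At the day-3 stage, 9 of the 38 genes were called higher in TSKM-3D cells than in fibroblasts and 0 lower, where 3.25% of all genes were called higher and 7.58% lower. By adjusted p alone, 29 were higher, where 19.2% of all genes were, and at an unadjusted p under 0.05 1 of the 38 was lower. On all 3 TSKM-3D arrays 31 of the 38 lay above every fibroblast array, where 24.8% of all genes did. The median of the 38 was 0.67 and that of all genes 0.05. Between iPS and TSKM-3D cells 1 gene, Bysl, was called higher and 0 lower, where 6.48% of all genes were called higher and 8.57% lower. By adjusted p alone 26 were higher, where 22.3% of all genes were, and 28 lay higher without overlap, where 24.2% of all genes did. At an unadjusted p under 0.05, 1 was lower. Between iPS cells and fibroblasts 25 were called higher and 0 lower, where 7.63% of all genes were called higher and 13.8% lower. By adjusted p alone 34 were higher and 1, Nop16, lower, where 25.5% and 29.1% of all genes were, and 35 lay higher without overlap, where 33.1% of all genes did. The median over the 38 was 0.39 for iPS minus TSKM-3D and 1.14 for iPS minus fibroblast, beside -0.01 and 0.05 for all genes.

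**Figure D2:**
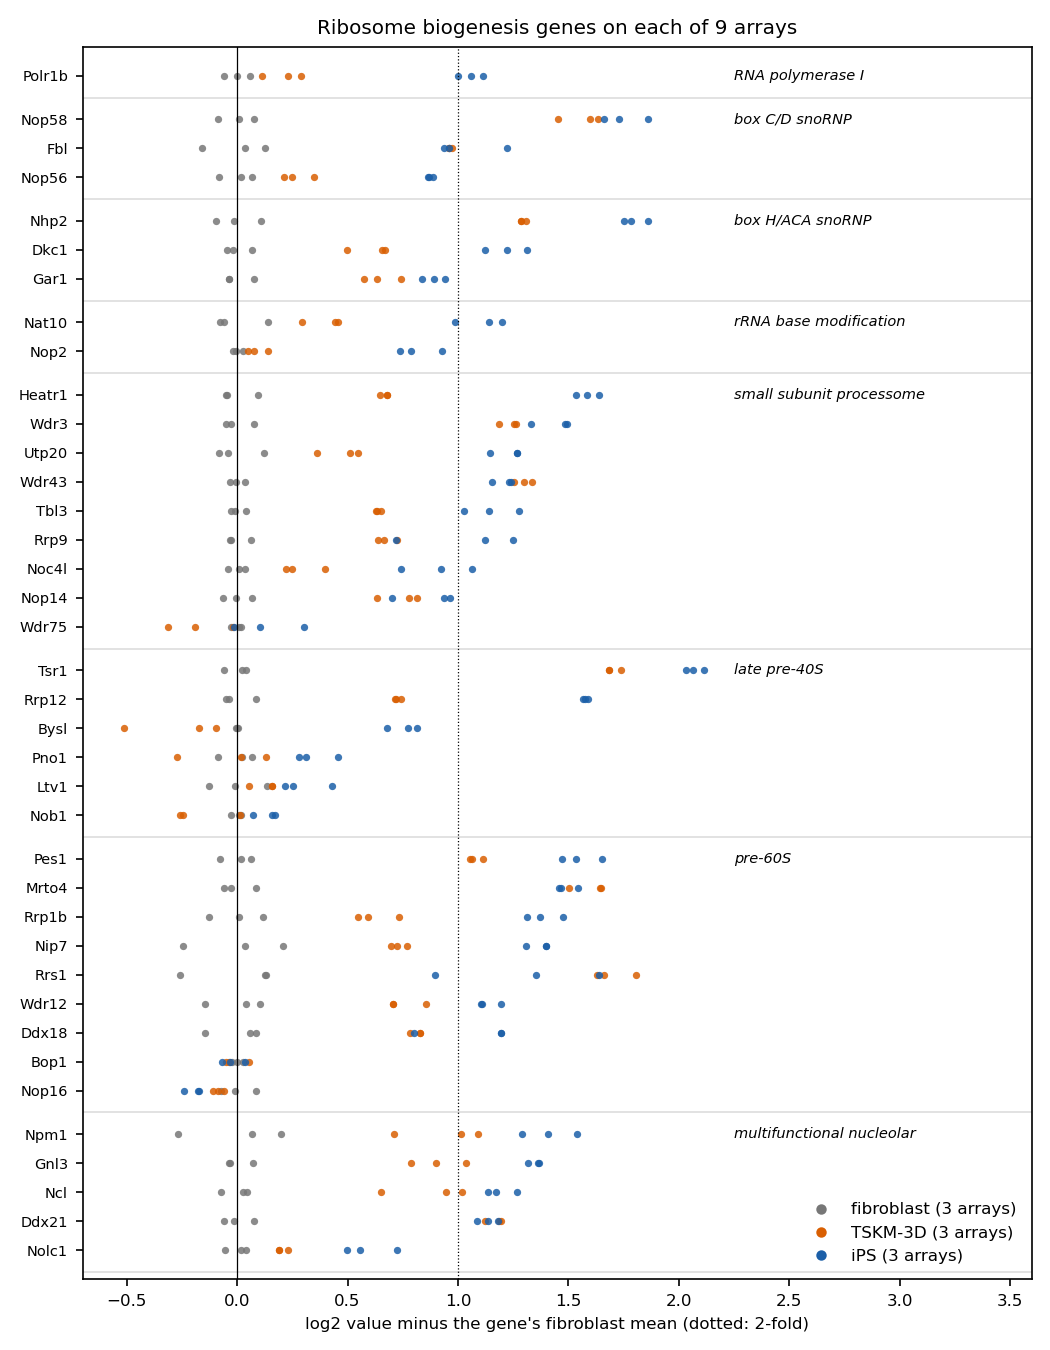
Each of the 38 genes on each of the 9 arrays, as the log2 value minus that gene's mean over the 3 fibroblast arrays, arranged by role. The dotted line marks 2-fold above the fibroblast mean. Most TSKM-3D points lie between the fibroblast and iPS points, while Bop1, Nop16, Wdr75 and Nob1 stay near 0 throughout.

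Polr1b encodes the second largest subunit of RNA polymerase I, the enzyme that transcribes the ribosomal RNA precursor. It read 9.50, 9.44 and 9.56 on fibroblast arrays, 9.61, 9.79 and 9.73 on TSKM-3D arrays and 10.61, 10.56 and 10.50 on iPS arrays. The 3 groups did not overlap, and the wider gap lay before the iPS arrays. The iPS level was 2.08-fold that of fibroblasts (1.06 ± 0.08, adjusted p = 2.23e-07), whereas TSKM-3D minus fibroblast was 0.21 ± 0.08 (adjusted p = 0.0465), below the 2-fold line.

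Among the core proteins of the box C/D snoRNPs, which guide 2′-O-methylation, Nop58 was past 2-fold by day 3 and Nop56 was under it. Nop58 read 9.34, 9.44 and 9.50 on fibroblast arrays, 11.02, 10.88 and 11.06 on TSKM-3D arrays and 11.09, 11.16 and 11.29 on iPS arrays. Its TSKM-3D arrays stood close to its iPS arrays, with 1.56 ± 0.09 for TSKM-3D minus fibroblast (adjusted p = 5.69e-08) and 0.19 ± 0.09 for iPS minus TSKM-3D (adjusted p = 0.0973). Nop56, its partner in the same particle, read 11.30, 11.15 and 11.25 on fibroblast arrays, 11.44, 11.58 and 11.48 on TSKM-3D arrays and 12.12, 12.10 and 12.10 on iPS arrays. For Nop56 the TSKM-3D arrays stood nearer to the fibroblast arrays, with TSKM-3D minus fibroblast at 0.27 ± 0.07 (adjusted p = 0.0116) and iPS minus fibroblast at 0.87 ± 0.07, both under 2-fold. Fbl encodes fibrillarin, the methyltransferase of these particles. Its brighter row gave 0.96 ± 0.10 for TSKM-3D minus fibroblast and 1.04 ± 0.10 for iPS minus fibroblast, and its second row 0.33 and 0.44, so the call for Fbl depends on the row.

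The box H/ACA snoRNPs guide pseudouridylation, and all 3 of their measured proteins had higher values at each later stage on non-overlapping arrays. This pattern was not particular to them, as it held for 23 of the 38 genes, these 3 included, and for 6.02% of all genes. Nhp2 read 9.06, 8.86 and 8.94 on fibroblast arrays, 10.24, 10.24 and 10.26 on TSKM-3D arrays and 10.81, 10.73 and 10.71 on iPS arrays. It rose 2.45-fold in TSKM-3D cells (1.29 ± 0.08, adjusted p = 9.76e-08) and stood 3.48-fold above fibroblasts in iPS cells (1.80 ± 0.08, adjusted p = 2.08e-09). Dkc1, the pseudouridine synthase dyskerin, was 2.33-fold higher in iPS cells than in fibroblasts (1.22 ± 0.08), with TSKM-3D cells midway at 0.61 ± 0.08. Gar1 read 9.50, 9.50 and 9.61 on fibroblast arrays, 10.11, 10.28 and 10.17 on TSKM-3D arrays and 10.38, 10.43 and 10.48 on iPS arrays. Its iPS minus fibroblast difference of 0.89 ± 0.08 (adjusted p = 9.28e-07) was larger than the spread between arrays but under 2-fold.

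The 2 stand-alone enzymes that modify ribosomal RNA bases were both under 2-fold at each single step. Nat10, the cytidine acetyltransferase of 18S RNA, read 8.86, 8.64 and 8.66 on fibroblast arrays, 9.01, 9.16 and 9.18 on TSKM-3D arrays and 9.71, 9.92 and 9.86 on iPS arrays, and was 2.16-fold higher in iPS cells than in fibroblasts (1.11 ± 0.09, adjusted p = 6.54e-07). Nop2, a cytosine methyltransferase of 28S RNA, read 9.74, 9.73 and 9.78 on fibroblast arrays, 9.80, 9.83 and 9.89 on TSKM-3D arrays and 10.49, 10.68 and 10.54 on iPS arrays. Its TSKM-3D minus fibroblast difference was 0.09 ± 0.08 (adjusted p = 0.375) and its iPS minus TSKM-3D difference 0.73 ± 0.08 (adjusted p = 6.73e-06), both under 2-fold.

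Of 9 genes of the small subunit processome, 2 were called higher in TSKM-3D cells and 6 in iPS cells relative to fibroblasts. These shares (22.2% and 66.7%) were close to those of all 38 genes (23.7% and 65.8%), where 3.25% and 7.63% of all genes were called. Wdr43, which belongs to its early transcription-coupled part, read 9.79, 9.72 and 9.75 on fibroblast arrays, 11.08, 11.05 and 11.00 on TSKM-3D arrays and 10.90, 10.99 and 10.98 on iPS arrays. All 3 TSKM-3D values lay above the iPS values, by 0.09 on average (adjusted p = 0.358), and both groups were far above the fibroblasts (1.30 ± 0.07 and 1.21 ± 0.07). Heatr1, the large scaffold of the same early part, read 9.01, 8.87 and 8.86 on fibroblast arrays, 9.59, 9.59 and 9.56 on TSKM-3D arrays and 10.50, 10.55 and 10.45 on iPS arrays. For Heatr1 the TSKM-3D arrays fell between the others, and the iPS level was 3-fold that of fibroblasts (1.59 ± 0.07, adjusted p = 4.26e-09). Wdr75, another protein of the early part, read 9.90, 9.85 and 9.89 on fibroblast arrays, 9.68, 9.56 and 9.86 on TSKM-3D arrays and 10.18, 9.98 and 9.86 on iPS arrays, with overlapping fibroblast and iPS values (0.13 ± 0.10, adjusted p = 0.307). The other 6 had iPS minus fibroblast differences of 0.87 for Nop14, 0.91 for Noc4l, 1.03 for Rrp9 (a U3 snoRNP protein), 1.15 for Tbl3, 1.23 for Utp20 and 1.44 for Wdr3.

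The late 40S group was the most divided. Tsr1, a GTPase-like factor that blocks premature subunit joining, read 8.99, 8.97 and 8.89 on fibroblast arrays, 10.64, 10.64 and 10.69 on TSKM-3D arrays and 11.07, 10.98 and 11.02 on iPS arrays. It was 3.26-fold higher in TSKM-3D cells (1.70 ± 0.07, adjusted p = 7.56e-09) and 4.2-fold higher in iPS cells than in fibroblasts (2.07 ± 0.07, adjusted p = 3.58e-10), and Rrp12, an export factor, was 2.98-fold higher in iPS cells (1.58 ± 0.07). In contrast, Nob1, the endonuclease that makes the 3′ end of 18S RNA, read 9.71, 9.67 and 9.71 on fibroblast arrays, 9.45, 9.71 and 9.44 on TSKM-3D arrays and 9.85, 9.87 and 9.77 on iPS arrays. Its iPS values all lay above the fibroblast values, by 0.13 ± 0.09 (adjusted p = 0.225). Pno1, the partner of Nob1, and Ltv1 had iPS minus fibroblast differences of 0.35 and 0.30. Bysl, which joins the particle in the nucleolus, read 8.65, 8.31 and 8.72 on TSKM-3D arrays, below its 3 fibroblast values, which all read 8.82, and 9.63, 9.59 and 9.50 on iPS arrays. Its iPS minus TSKM-3D difference was 1.01 ± 0.10 (adjusted p = 5.97e-06), only just 2-fold. Bysl was not called without the second TSKM-3D array or without the first iPS array, nor with array medians set equal.

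The 60S group held the genes with the highest TSKM-3D values relative to iPS cells. Rrs1, which helps bring the 5S ribonucleoprotein into the particle, read 7.16, 7.55 and 7.55 on fibroblast arrays, 9.09, 9.05 and 9.23 on TSKM-3D arrays and 8.32, 8.78 and 9.06 on iPS arrays. It was 3.25-fold higher in TSKM-3D cells than in fibroblasts (1.70 ± 0.17, adjusted p = 6.08e-06), and its iPS arrays had an SD of 0.37, the largest among the 38 genes, and overlapped the TSKM-3D arrays. Mrto4, which is replaced by a ribosomal stalk protein during maturation, read 8.48, 8.45 and 8.60 on fibroblast arrays, 10.16, 10.01 and 10.16 on TSKM-3D arrays and 9.97, 10.05 and 9.98 on iPS arrays. It was 3.03-fold higher in TSKM-3D cells (1.60 ± 0.08) and 2.81-fold higher in iPS cells (1.49 ± 0.08) than in fibroblasts. The second, dimmer row of Mrto4 gave -0.84 and -0.95 in the same comparisons, so its rows point in opposite directions. With both rows averaged Mrto4 differed by 0.38 and 0.27 and was called in neither comparison.

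Pes1, Bop1 and Wdr12 encode the 3 proteins of the PeBoW complex, which is needed for 28S and 5.8S maturation, and their values did not move as a unit. Pes1 read 9.16, 9.06 and 9.20 on fibroblast arrays, 10.21, 10.20 and 10.26 on TSKM-3D arrays and 10.79, 10.67 and 10.61 on iPS arrays, 2.93-fold above fibroblasts in iPS cells (1.55 ± 0.08, adjusted p = 7.67e-09). Wdr12 was 2.2-fold higher in iPS cells than in fibroblasts (1.14 ± 0.09). Bop1 read 9.97, 9.99 and 9.94 on fibroblast arrays, 9.92, 10.02 and 9.93 on TSKM-3D arrays and 9.90, 10.002 and 9.94 on iPS arrays. All 9 Bop1 values lay within one narrow band, and iPS minus fibroblast was -0.02 ± 0.07 (adjusted p = 0.822). Of the remaining 60S genes, Nip7, Rrp1b and the helicase gene Ddx18 were higher in iPS cells than in fibroblasts by 1.37, 1.39 and 1.06. Nop16 had all its iPS values below its fibroblast values (-0.20 ± 0.07, adjusted p = 0.0373), under 2-fold.

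Abundant nucleolar proteins with several roles made up the last group. Ddx21, a helicase that works on both polymerase I transcription and processing, read 10.08, 9.94 and 9.99 on fibroblast arrays, 11.19, 11.13 and 11.20 on TSKM-3D arrays and 11.09, 11.19 and 11.14 on iPS arrays. Its TSKM-3D and iPS arrays overlapped (-0.03 ± 0.07, adjusted p = 0.762), both above the fibroblasts by over 2-fold. Npm1, the nucleolar chaperone nucleophosmin, read 10.57, 10.91 and 11.04 on fibroblast arrays, 11.85, 11.55 and 11.93 on TSKM-3D arrays and 12.13, 12.25 and 12.38 on iPS arrays. It was 2.66-fold higher in iPS cells than in fibroblasts (1.41 ± 0.13, adjusted p = 2.22e-06), although other rows carry its symbol together with a second one, so probes may share sequence with related copies. Gnl3 (nucleostemin) and Ncl (nucleolin) were 2.55-fold and 2.28-fold higher in the same comparison. Nolc1, a snoRNP chaperone, read 9.82, 9.80 and 9.72 on fibroblast arrays, 9.97, 9.97 and 10.01 on TSKM-3D arrays and 10.50, 10.34 and 10.27 on iPS arrays, with an iPS minus fibroblast difference of 0.59 ± 0.08 (adjusted p = 4.37e-05), under 2-fold.

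The genes differed in how far they had moved by day 3. For the 25 called higher in iPS cells than in fibroblasts, the TSKM-3D mean was placed between the fibroblast mean (0%) and the iPS mean (100%). The positions ran from 19.8% for Polr1b to 131.1% for Rrs1, with a median of 67.3%, and 18 of the 25 were past 50%. The positions of 4 genes, Rrs1, Mrto4, Wdr43 and Ddx21, exceeded 100%. That of Mrto4 rests on its brighter row, while its second row was lower than in fibroblasts in both TSKM-3D and iPS cells. Positions were not counted over all genes called higher in iPS cells, so no background share stands beside these counts. A contrast chosen after the values were seen, TSKM-3D minus fibroblast less iPS minus TSKM-3D, tested the difference between the steps in the same limma fit. A call again needed adjusted p below 0.05 and a difference of at least 2-fold. The first step was larger for 7 of the 38 genes, where 9.91% of all genes were called so. These were Rrs1 (2.10), Mrto4 (1.71), Wdr43 (1.38), Nop58 (1.37), Tsr1 (1.33), Ddx21 (1.20) and Wdr3 (1.03). The first step was smaller for 1, Bysl (-1.27), where 12.9% of all genes were called so. The remaining 30 did not pass both lines. By adjusted p alone, 15 of the 38 had a larger first step and 5 a smaller, where 3858 and 4650 of all genes did. Dkc1, whose steps were 0.61 each, passed neither line. With all rows of a gene averaged, the first step was larger for 6 and 23 genes were higher in iPS cells than in fibroblasts.

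**Figure D3:**
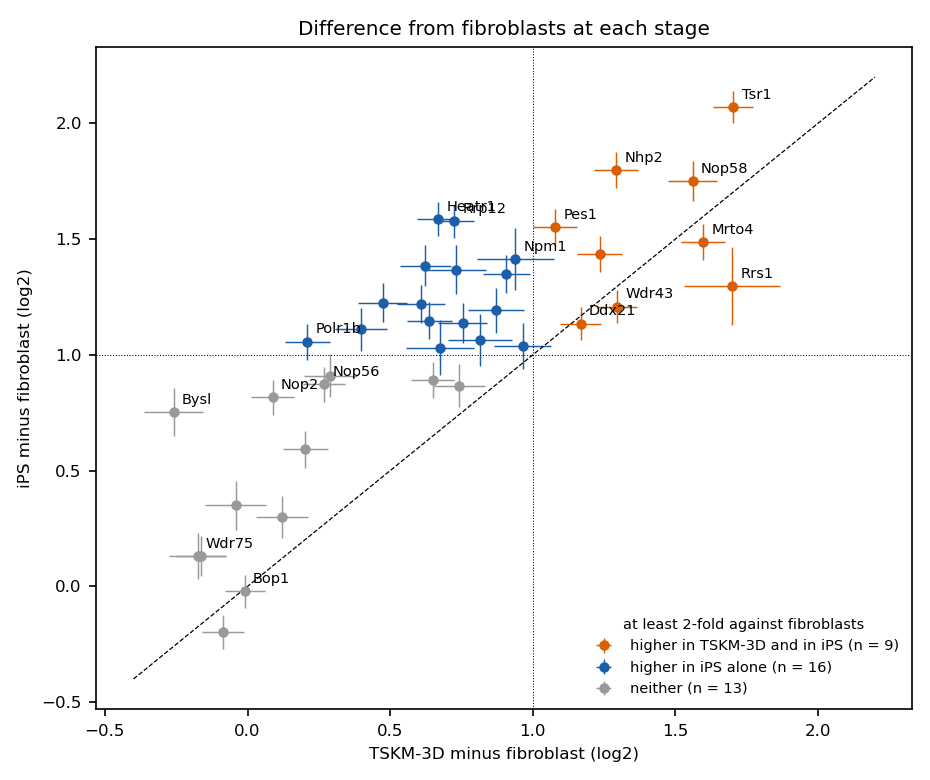
TSKM-3D minus fibroblast (horizontal) against iPS minus fibroblast (vertical) on the log2 scale for the 38 genes, with standard errors. Both axes share the fibroblast arrays, so the plot sets values side by side and shows no independent relation. On the dashed line the TSKM-3D and iPS levels are equal; Ddx21 (102.9% of the way) and Wdr43 (107.2%) lie slightly past it, and dotted lines mark 2-fold.

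Other genes of the pathway were counted in the same way. Of 128 further measured ribosome biogenesis genes, 12 were called higher and 2 lower in TSKM-3D cells than in fibroblasts, 12 higher and 0 lower in iPS than in TSKM-3D cells, and 40 higher and 0 lower in iPS cells than in fibroblasts. Of all genes 3.25%, 6.48% and 7.63% were higher in these comparisons, and 7.58%, 8.57% and 13.8% lower. The median of the 128 was 0.27 for TSKM-3D minus fibroblast, where that of the 38 genes was 0.67, and 0.70 for iPS minus fibroblast, where that of the 38 was 1.14. For iPS minus TSKM-3D the order was the other way, with 0.46 for the 128 and 0.39 for the 38. The 38 and the lists were chosen with earlier results of these data known, and whether these gaps follow from that choice was not tested. Among 45 other small subunit factors, 5 were higher in TSKM-3D cells, led by Fcf1 (1.77), the nuclease-like processome protein, Mphosph10 (1.52) and Tsr3 (1.25). In iPS cells 15 of the 45 were higher than in fibroblasts, led by Fcf1 (2.21), the H/ACA assembly factor Shq1 (1.95) and Utp6 (1.78).

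Among 49 other large subunit factors, 4 were higher in TSKM-3D cells, with Ebna1bp2 at 1.61, the methyltransferase gene Ftsj3 at 1.60 and Rrp15 at 1.48. In iPS cells 17 of the 49 were higher than in fibroblasts, led by the giant AAA ATPase Mdn1 (2.28), Ftsj3 (2.14) and Rrp15 (1.92). Between TSKM-3D and iPS cells 5 of the 49 rose, and the 3 largest were Pelp1 (1.84 ± 0.10), Mdn1 (1.65) and Senp3 (1.57 ± 0.10). Pelp1, Senp3, Tex10, Wdr18 and Las1l encode parts of one 60S maturation complex, which works beside Mdn1, and were set side by side after their values were seen. Their iPS minus TSKM-3D differences were 1.84, 1.57, 1.08, 0.61 and 0.33, and their TSKM-3D minus fibroblast differences -0.70, -0.03, -0.06, 0.09 and 0.80. Las1l, the nuclease of this complex, thus had its larger difference at the other step from Pelp1, Senp3 and Tex10.

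Of 14 exosome and trimming genes, 5 were higher in iPS cells than in fibroblasts, among them Exosc5 (1.75) and Exosc9 (1.59). Of 20 other polymerase I and ribosomal DNA transcription genes 3 were, with Taf1d at 1.34, Polr2h at 1.17 and Polr2e at 1.07. In TSKM-3D cells, relative to fibroblasts, 1 of these 20 rose, Twistnb (1.01), and 2 fell, Znrd1 by 1.06 and the shared subunit gene Polr2f by 1.04.

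The ribosomal proteins, the products assembled by this pathway, had smaller medians. Of 55 measured cytosolic ribosomal protein genes, 3 were called higher and 3 lower in TSKM-3D cells, where 3.25% and 7.58% of all genes were, with Rpl13 at 1.51, Rpl30 at 1.40 and Rpl4 at 1.00, and Rps15 at -1.16, Rpl34 at -1.06 and Rps28 at -1.04. In iPS cells 8 were higher and 0 lower than in fibroblasts, where 7.63% and 13.8% of all genes were. The largest rises were Rpl30 (2.81), Rpl12 (1.94) and Rpl13 (1.64). By adjusted p alone 27 were higher and 17 lower in TSKM-3D cells, where 3832 and 5054 of all genes were. By the same rule 29 were higher and 12 lower in iPS cells than in fibroblasts, where 25.5% and 29.1% of all genes were. The medians of the 55 were 0.15 for TSKM-3D minus fibroblast and 0.30 for iPS minus fibroblast. Many ribosomal protein genes have processed copies in the genome, and 25 of the 80 listed symbols had no row of their own here, so single values are less certain.

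**Figure D4:**
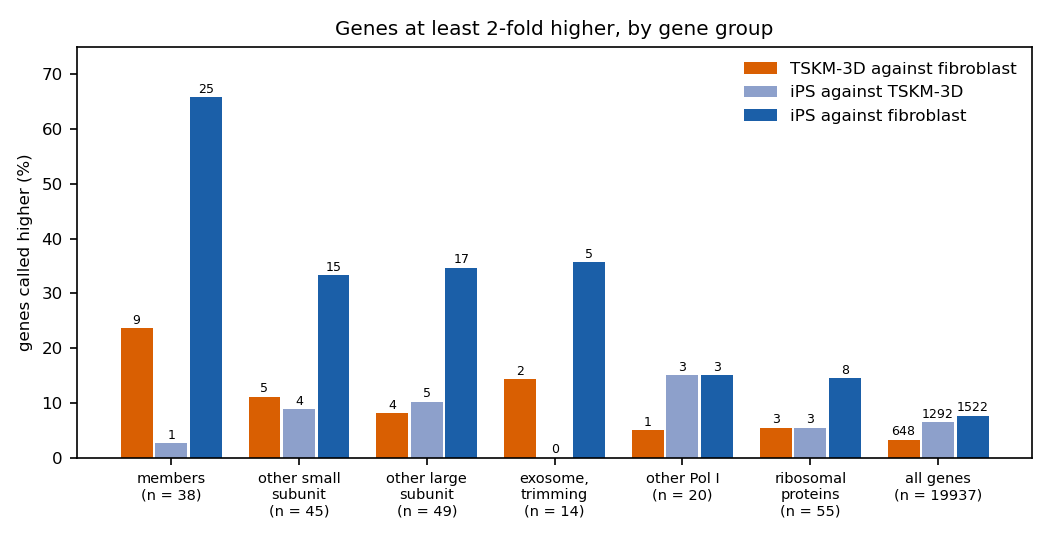
Percent of genes called at least 2-fold higher in each of the 3 comparisons, for the 38 listed genes, the related lists and all 19937 genes. Numbers above the bars are counts of genes. For iPS against fibroblasts the bars stand at 25 of 38 listed genes, 15 of 45 and 17 of 49 other subunit factors, 8 of 55 ribosomal proteins and 1522 of all genes.

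MYC genes and proliferation markers were read on the same arrays, without separation of introduced from endogenous transcripts. Myc read 9.79, 9.80 and 9.92 on fibroblast arrays, 11.46, 11.37 and 11.48 on TSKM-3D arrays and 8.94, 9.04 and 9.07 on iPS arrays, so it was highest in TSKM-3D cells and lowest in iPS cells. Mycn read 6.27, 6.19 and 6.42 on fibroblast arrays, 6.68, 6.77 and 6.28 on TSKM-3D arrays and 9.14, 8.76 and 8.91 on iPS arrays. Mycn was thus high in iPS cells alone (2.36 ± 0.14 for iPS minus TSKM-3D, adjusted p = 4.47e-08 in limma). Max, their shared partner, differed by -0.23 ± 0.10 for TSKM-3D minus fibroblast and -0.14 for iPS minus TSKM-3D. The mean over 17 proliferation markers was 10.005 to 10.08 on fibroblast arrays, 9.32 to 9.55 on TSKM-3D arrays and 10.65 to 10.69 on iPS arrays. Of the 17, 5 were called lower and 0 higher in TSKM-3D cells than in fibroblasts, where 7.58% and 3.25% of all genes were. By adjusted p alone 12 were lower and 3 higher, where 5054 and 3832 of all genes were. The differences ran from -1.47 for Mki67 to 0.36. The mean over the 38 ribosome biogenesis genes was 9.31 to 9.38 on fibroblast arrays, 9.96 to 10.05 on TSKM-3D arrays and 10.36 to 10.41 on iPS arrays. The mean of the ribosome biogenesis genes was therefore higher in TSKM-3D cells than in fibroblasts, and that of the proliferation markers lower. What links these readings was not tested.

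**Figure D5:**
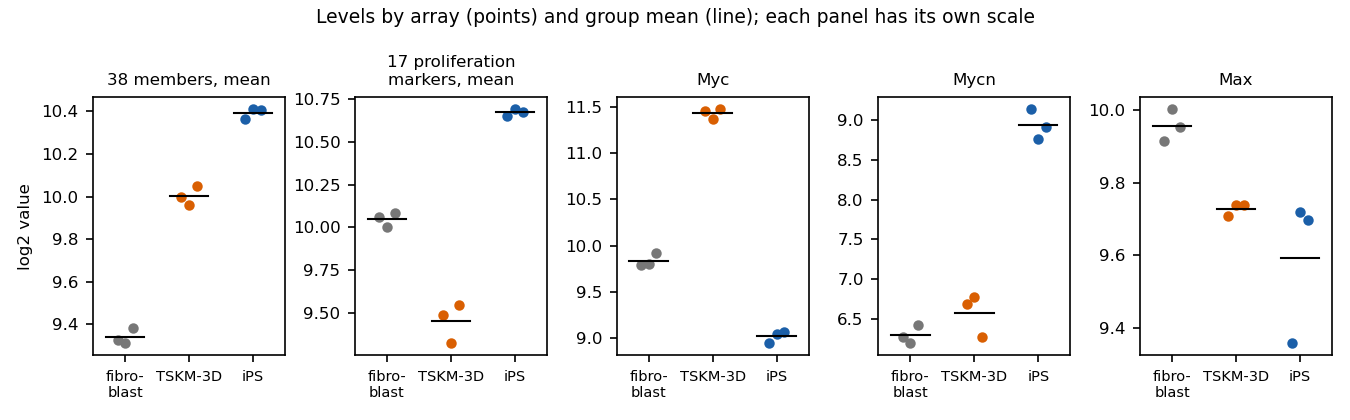
Log2 values on each array (points) with group means (lines) for the mean of the 38 ribosome biogenesis genes, the mean of 17 proliferation markers, Myc, Mycn and Max, each panel on its own scale. The 38-gene mean is higher at each later stage, the proliferation mean is lowest in TSKM-3D cells, Myc is highest there and Mycn is highest in iPS cells.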

How the data were processed

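Total RNA from 9 samples was labelled with biotin by an Affymetrix whole-transcript terminal labelling kit, per the labels' protocols, and hybridised to 1 array each. The deposited table holds log2 values for 34760 rows, normalized by the authors with a method not given in the sources used here. Array medians lay between 6.01 and 6.23 and the values were used as deposited. Precision rests on 3 arrays in each group.

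Gene symbols came from GEO's annotation of the platform, where 21640 rows carried 1 symbol, 1321 several and 11799 are unnamed here. The 3 groups, taken from the sample titles, were fitted by lmFit, contrasts.fit and eBayes of limma 3.58.1 under R 4.3.3 over 19937 genes without a covariate, with Benjamini-Hochberg adjustment. The fit was tested on simulated data. Promoter sequences and starts are those of RefSeq, GRCm38.p6, and motifs were searched on both strands.

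The 39 genes and all lists were chosen with earlier results of these data known. Values on every array are given, within each role, for the genes with the largest TSKM-3D minus fibroblast, largest iPS minus fibroblast and smallest iPS minus fibroblast difference. From related lists up to 3 called genes in each direction are named. Bysl, Mrto4 and the 60S maturation complex around Pelp1 were singled out after their values were seen, as was the contrast between the 2 steps. The alternatives tried concern scaling, the row of a gene, the call rule, the variance model, the replicate number and single arrays.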

Additional observations from a re-analysis of the deposited data

How the results depend on the processing

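The 2-fold requirement set the counts. With adjusted p alone, 29 of the 38 genes were higher in TSKM-3D cells than in fibroblasts and 26 in iPS than in TSKM-3D cells. Over the whole course 34 of the 38 were higher and 1 (Nop16) was lower. Over all genes 3832 were higher and 5054 lower, 4453 higher and 4635 lower, and 5091 higher and 5792 lower in the 3 comparisons. The first step was then larger for 15 of the 38 genes and smaller for 5, where it was so for 3858 and 4650 of all genes. At 1.5-fold, 24 and 12 of the 38 were higher in TSKM-3D against fibroblasts and in iPS against TSKM-3D cells. In iPS cells against fibroblasts 32 were higher. Over all genes 1646 were higher and 3092 lower, 2512 higher and 2931 lower, and 2779 higher and 4228 lower in these 3 comparisons. At this line the first step was larger for 11 of the 38 and smaller for 3, where it was so for 3200 and 4079 of all genes. Tested against 2-fold with limma's treat, 6 of the 38 were higher in TSKM-3D cells than in fibroblasts and 0 in iPS than in TSKM-3D cells. In iPS cells against fibroblasts 13 were higher. Over all genes treat gave 343 higher and 797 lower, 803 higher and 1128 lower, and 997 higher and 1976 lower in these 3 comparisons. By treat the first step was larger for 3 of the 38 and smaller for 0, where it was so for 1131 and 1401 of all genes. Placing the third fibroblast array with the TSKM-3D arrays left 0 of the 38 genes and 0 of all genes in either direction called between TSKM-3D cells and fibroblasts and 0 with a larger first step, and 2 of the 38 higher in iPS than in TSKM-3D cells, by the construction of a mixed group; at an unadjusted p under 0.05 limma then gave 23 of the 38 higher and 0 lower, and 1926 genes higher and 3433 lower. Setting array medians equal moved the median of all genes for iPS minus fibroblast to -0.12. It left 17 of the 38 called higher there and 0 between iPS and TSKM-3D cells, where 1224 and 1100 of all genes were called higher. The median of the 38 relative to all genes was 1.09 in both fits. It could not change, because this scaling shifts every gene on an array equally. With quantile normalization the counts were 12, 1 and 27, where 803, 1289 and 1644 of all genes were called higher. Leaving out single arrays gave 9 to 11 of the 38 higher in TSKM-3D cells than in fibroblasts, 0 to 1 in iPS than in TSKM-3D cells and 23 to 25 over the whole course, and 6 to 7 with a larger first step. The deviations of same-numbered arrays from their group means correlated at -0.098 to 0.062, so the numbers are no sign of pairing. The fit with replicate number as a block gave 9, 1 and 25, the same counts because it leaves the fold changes as they are and the fold line sets the calls; by adjusted p alone it gave 8769 genes in either direction between TSKM-3D cells and fibroblasts, against 8886 without the block. With all rows of a gene averaged the counts were 9, 1 and 23, with Ddx18 in place of Mrto4 in the first, and 6 genes had a larger first step. No alternative fit turned the direction of a called gene, but the second row of Mrto4, taken alone, did. Signal over background was not measured.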

Other observations

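Other members of the MYC network differed between the later stages. Mxd4, which encodes a MAX partner that opposes MYC, read 9.82, 9.80 and 9.73 on fibroblast arrays, 10.29, 10.25 and 10.41 on TSKM-3D arrays and 7.35, 7.59 and 7.75 on iPS arrays. It fell by 2.75 on the log2 scale in iPS cells relative to TSKM-3D cells (SE 0.10; limma, adjusted p = 1.21e-09). Mga, another MAX partner, read 8.55, 8.58 and 8.40 on fibroblast arrays, 8.33, 7.88 and 8.55 on TSKM-3D arrays and 9.90, 9.95 and 9.65 on iPS arrays, where it was higher than in TSKM-3D cells by 1.58 ± 0.15 (adjusted p = 3.23e-06). Of 11 measured network genes, 2 were higher and 2 lower in iPS than in TSKM-3D cells, where 6.48% and 8.57% of all genes were.

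Near the 2-fold line, Pes1 (1.08) and Ddx21 (1.17) lay just inside it and Fbl (0.96) and Npm1 (0.94) just outside for TSKM-3D minus fibroblast. For iPS minus fibroblast, Rrp9 (1.03) and Fbl (1.04) lay just inside, and Noc4l (0.91) and Gar1 (0.89) just outside. The second rows of Ddx18 and Wdr12 gave 1.58 and 0.92 for iPS minus fibroblast, on the same side of 0 as their brighter rows (1.06 and 1.14), so that the call for Wdr12 depends on the row. For TSKM-3D minus fibroblast the second row of Ddx18 was called at 1.21, and its brighter row at 0.81 was not.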
